A study of Homo sapiens with 4 samples.

Results

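The expression of the MET and TAM receptor tyrosine kinases and of their ligands was compared in the cell lines MDA-MB-231 and LM2-4175. MDA-MB-231 is a line of triple-negative breast cancer cells. LM2-4175 was isolated from MDA-MB-231 and has strong metastasis to the lung. The 8 genes are the receptors MET, MST1R, AXL, TYRO3 and MERTK and the ligands HGF, GAS6 and PROS1, and they were found by name among the 57815 genes of the authors' table, 1 entry each. The rule that lists them names the pathway and no value, but it was written with earlier results of these data known. Both cell lines were grown untreated in DMEM with 10% FBS, and total RNA was sequenced in 2 libraries per cell line, 4 in all. The table gives for each gene and cell line 1 FPKM (the number of sequenced fragments per kilobase of transcript, corrected for sequencing depth) with an interval, whose ends are called the lower and upper bound. As that value combines both libraries, there is no SD, no test between replicates was possible and none of the differences has a replicate check. Each group is 1 cell line, so a difference cannot be told apart from one between these cultures.

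MET is the receptor of hepatocyte growth factor (HGF), a ligand that is made mainly by stromal cells and acts on epithelial cells, where MET drives scattering, migration and branching growth. MST1R, also called RON, is the close relative of MET and binds the HGF-like protein MST1. TYRO3, AXL and MERTK are the TAM receptors, which bind the vitamin K-dependent proteins GAS6 and PROS1 (protein S), and these in turn bridge the receptors to phosphatidylserine on dying cells. AXL is known for its association with the mesenchymal state and drug resistance of carcinoma cells, and MERTK for the uptake of dying cells by macrophages.

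The markers of the cell lines were checked first, and wherever values stand in pairs MDA-MB-231 comes before LM2-4175. ESR1 was listed at 0.0331 FPKM in MDA-MB-231 and 0.0186 FPKM in LM2-4175, and PGR at 0.0124 and 0.00438 FPKM, so the hormone receptor genes were near 0 in both. ERBB2 reached 34.95 FPKM (interval 20.9 to 49.0) in MDA-MB-231 against 22.8 FPKM (12.8 to 32.7) in LM2-4175. The mesenchymal gene VIM had 1355 and 1768 FPKM, against 0.851 and 0.366 FPKM of the epithelial cadherin gene CDH1. EPCAM, another epithelial gene, was at 12.3 FPKM (8.38 to 16.1) in MDA-MB-231 against 4.93 FPKM (3.13 to 6.73) in LM2-4175, with intervals that did not overlap. Of 6 macrophage markers (PTPRC, CD14, CD163, CSF1R, AIF1 and ITGAM), CD14 and CSF1R passed a mean of 0.5 FPKM, and all 6 summed to 4.17 FPKM in MDA-MB-231 and 2.60 FPKM in LM2-4175. PTPRC, which marks all white blood cells, was at 0.0767 and 0.0263 FPKM, and AIF1 was listed at 0 in both. In bulk RNA, fewer cells that express a gene and less RNA per cell cannot be told apart.

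The levels of 7 of the genes ran from 4.22 to 402.1 FPKM, and the order of the 8 genes was nearly the same in both cell lines. AXL stood at the top with 402.1 FPKM in MDA-MB-231 and 321.8 FPKM in LM2-4175, followed by GAS6, MET and PROS1. TYRO3, MERTK and MST1R lay between 4.22 and 9.45 FPKM. HGF was close to 0 in both cell lines. In MDA-MB-231 the bounds of neighbours in this order overlapped for PROS1 and TYRO3 and for MERTK and MST1R, and all other neighbours were apart. In LM2-4175 the bounds overlapped for MERTK and TYRO3 and for TYRO3 and MST1R, while PROS1 stood apart from MERTK with 2.31 times its FPKM. MERTK and TYRO3 were the only genes that traded places.

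**Figure D1:**
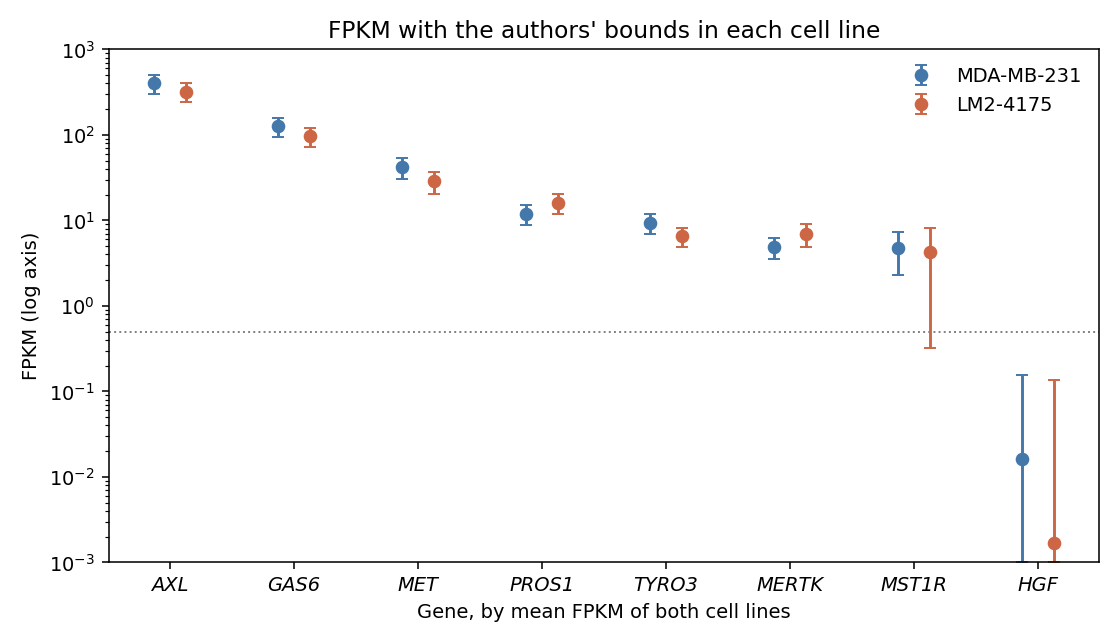
FPKM on a log axis of the 8 genes in MDA-MB-231 (blue) and LM2-4175 (orange), 1 value per cell line, with bars for the authors' lower and upper bounds; the bars of HGF reach down to a bound of 0, off the axis, and the dotted line marks 0.5 FPKM. AXL lies above all other genes with 402.1 and 321.8 FPKM, HGF lies below the dotted line, and the bars of the cell lines overlap for each gene.

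The start regions of the genes with the highest and the lowest value, AXL and HGF, and of MET, the receptor of HGF, are shown because the level of a receptor and of its ligand differed this widely within the same cells. The sequences are from RefSeq on GRCh38.p14, 250 bases before to 50 bases after the annotated start, for AXL at chr19:41218973-41219272 (plus strand, the first of 2 windows listed), for MET at chr7:116671946-116672245 (plus strand) and for HGF at chr7:81769998-81770297 (minus strand). Capitals mark GGGCGG or its reverse complement CCGCCC, the core of the GC box bound by SP1, and CATTCC or GGAATG, the core letters bound by TEAD factors.
AXL: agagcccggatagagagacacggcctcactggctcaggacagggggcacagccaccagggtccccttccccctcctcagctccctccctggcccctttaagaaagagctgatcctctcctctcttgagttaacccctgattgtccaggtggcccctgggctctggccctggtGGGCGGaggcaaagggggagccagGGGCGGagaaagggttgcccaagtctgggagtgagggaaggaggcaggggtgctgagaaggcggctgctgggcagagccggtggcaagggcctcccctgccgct
MET: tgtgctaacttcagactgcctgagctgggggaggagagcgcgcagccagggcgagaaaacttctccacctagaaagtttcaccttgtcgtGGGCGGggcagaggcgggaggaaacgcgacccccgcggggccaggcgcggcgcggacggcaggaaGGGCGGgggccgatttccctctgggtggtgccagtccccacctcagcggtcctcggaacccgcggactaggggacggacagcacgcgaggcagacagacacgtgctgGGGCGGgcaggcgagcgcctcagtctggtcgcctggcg
HGF: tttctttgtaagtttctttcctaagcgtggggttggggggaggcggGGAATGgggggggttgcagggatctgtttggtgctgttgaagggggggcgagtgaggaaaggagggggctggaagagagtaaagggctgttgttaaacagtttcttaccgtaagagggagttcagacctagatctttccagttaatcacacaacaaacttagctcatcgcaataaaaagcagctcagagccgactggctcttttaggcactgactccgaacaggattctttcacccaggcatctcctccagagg
The AXL window holds 2 GC box words and 7 CG dinucleotides and is 66.0% G and C. The MET window holds 3 GC box words and 30 CG dinucleotides (69.3% G and C), and the HGF window none of the GC box words, 1 TEAD word and 7 CG dinucleotides (51.0% G and C). Among the 10 windows listed for the 8 genes, 7 held a GC box word, against 44.95% of the 35116 windows of this length over all genes. TEAD words stood in 2 windows, those of HGF and the second window of AXL (14.0% of all windows), and the AP-1 words TGACTCA and TGAGTCA stood in 0 windows (4.95% of all). The words were searched on both strands, GC box words overlapped each other in the MST1R window, where each was counted, and no TEAD word overlapped a GC box word. A match is not evidence of binding.

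Whether the genes differ between the cell lines was asked next. A call required a mean of 0.5 FPKM or more, at least a 1.5-fold difference in FPKM + 1, and intervals of the cell lines with no overlap. Of the 8 genes, 7 passed the filter, and HGF did not. None of the 7 was called (0 of 7), and 9.27% of the 13911 genes tested were called in either direction. None of the 7 reached 1.5-fold (0 of 7), a fold that 22.1% of all genes tested reached. With 7 genes, these counts are too small to set the members apart from all genes. AXL, GAS6, MET, TYRO3 and MST1R had a lower FPKM in LM2-4175, and PROS1 and MERTK a higher one. Of all 13911 genes tested, 7585 were lower and 6326 higher. The median log2 difference (LM2-4175 minus MDA-MB-231, on FPKM + 1) of the 7 genes was -0.32, against -0.04 over all genes tested, and their median absolute difference was 0.39, against 0.28. The overlap of the bounds compares pooled libraries, and an uncalled gene is not shown to be at the same level in both.

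**Figure D2:**
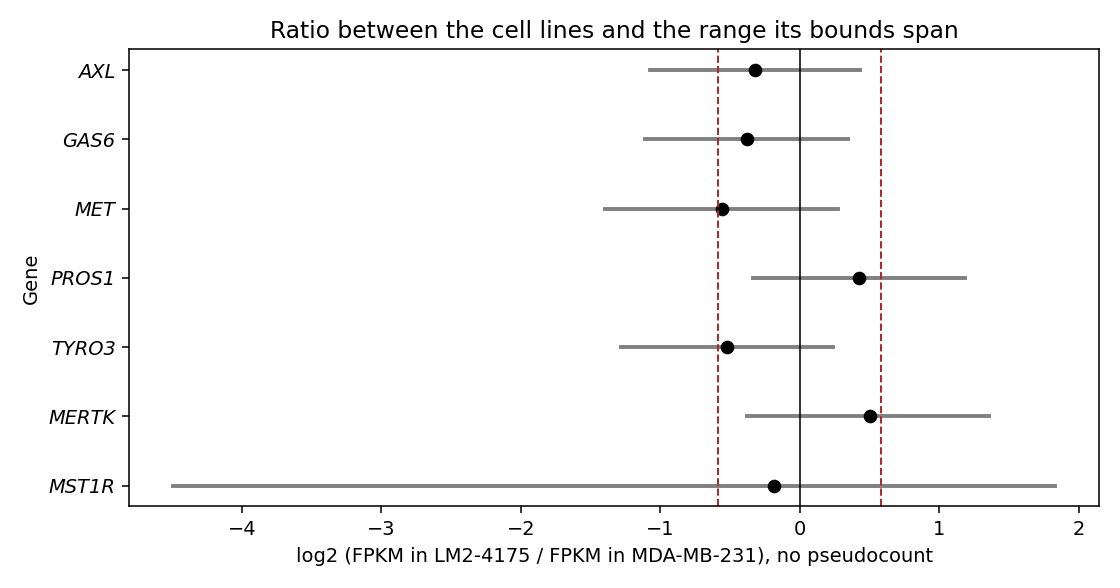
Ratio of FPKM in LM2-4175 to FPKM in MDA-MB-231 on the log2 scale, without a pseudocount, for the 7 genes with a mean of at least 0.5 FPKM. Points are the ratios, grey lines run from the lower bound in LM2-4175 over the upper bound in MDA-MB-231 to the upper over the lower, and dashed lines mark 1.5-fold; every line crosses 0 and every point lies between the dashed lines.

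AXL (ENSG00000167601, chromosome 19 of GRCh37, 41725128 to 41767671, plus strand), the receptor of highest affinity for GAS6, reached 402.1 FPKM (interval 298.7 to 505.5) in MDA-MB-231 against 321.8 FPKM (239.8 to 403.9) in LM2-4175. The ratio of the values was 0.800, and the intervals span ratios from 0.474 to 1.35. AXL thus had the higher value in MDA-MB-231, with bounds that shared the range from 298.7 to 403.9 FPKM. Positions of the other genes are on the same build. AXL ranked 210 of the 13911 genes tested in MDA-MB-231 and 218 in LM2-4175. An antisense lncRNA gene, listed at 0 in both cell lines, covers 1.31% of the exon bases of AXL.

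TYRO3 (ENSG00000092445, chromosome 15, 41849873 to 41875787, plus strand), the TAM receptor best known from the nervous system, reached 9.45 FPKM (7.01 to 11.9) in MDA-MB-231 against 6.58 FPKM (4.90 to 8.27) in LM2-4175, a ratio of 0.696. MERTK (ENSG00000153208, chromosome 2, 112656184 to 112787138, plus strand) reached 4.92 FPKM (3.54 to 6.30) against 6.97 FPKM (4.85 to 9.08), a ratio of 1.42. These minor TAM receptors thus had opposite signs, with log2 differences of -0.46 and 0.43. TYRO3 was at 1.92 times MERTK in MDA-MB-231 but at 0.945 times in LM2-4175, where the bounds span 1.11 to 3.36 and 0.539 to 1.70. As these ranges overlap, the trade of places is not separated from the error of the values. TYRO3P, a pseudogene copy of TYRO3, was at 0.01 FPKM in MDA-MB-231 and 0.0022 FPKM in LM2-4175.

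AXL made up 96.5% of the summed FPKM of the TAM receptors in MDA-MB-231 and 96.0% in LM2-4175. TYRO3 held 2.27% and 1.96% of that sum, and MERTK 1.18% and 2.08%. Per unit of length, AXL was listed at 42.5 times TYRO3 and 81.7 times MERTK in MDA-MB-231, and at 48.9 and 46.2 times these in LM2-4175.

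GAS6 (ENSG00000183087, chromosome 13, 114523522 to 114567049, minus strand), the ligand that binds all TAM receptors, reached 125.7 FPKM (94.97 to 156.5) in MDA-MB-231 against 96.6 FPKM (72.6 to 120.6) in LM2-4175, a ratio of 0.768. Its bounds shared the range from 94.97 to 120.6 FPKM, and 5.56% and 7.02% of the genes tested lay above it. The antisense gene GAS6-AS1 covers 7.00% of its exon bases and was at 0.0614 and 0.133 FPKM. PROS1 (ENSG00000184500, chromosome 3, 93591895 to 93698847, minus strand), which encodes an anticoagulant cofactor that also binds TYRO3 and MERTK, reached 12.0 FPKM (8.85 to 15.1) in MDA-MB-231 against 16.1 FPKM (12.0 to 20.1) in LM2-4175, a ratio of 1.34. Its pseudogene copy PROSP was listed at 0 in both. GAS6 stood at 10.5 times PROS1 in MDA-MB-231 and at 6.01 times in LM2-4175, and the ranges from the bounds overlap (6.28 to 17.7 and 3.61 to 10.04). AXL stood at 3.20 times GAS6 in MDA-MB-231 and at 3.33 times in LM2-4175.

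MET (ENSG00000105976, chromosome 7, 116312250 to 116438431, plus strand) reached 42.1 FPKM (30.5 to 53.6) in MDA-MB-231 against 28.6 FPKM (20.3 to 36.9) in LM2-4175. Its log2 difference of -0.54 was the largest in size of the 7 genes, and 24.8% of all genes tested had a larger one. The ratio of 0.680 (bounds 0.379 to 1.21) lay just short of the fold threshold, and the bounds shared the range from 30.5 to 36.9 FPKM. MST1R (ENSG00000164078, chromosome 3, 49924435 to 49941306, minus strand) reached 4.80 FPKM (2.28 to 7.31) against 4.22 FPKM (0.325 to 8.11), a ratio of 0.880. Its bounds were the widest of the 7 genes, the upper one lying 52.4% above the FPKM in MDA-MB-231 and 92.3% above it in LM2-4175, against 24.5% to 30.4% for the other 6. The table gives MST1R and the neighbouring gene MON1A the same locus, and MON1A was at 8.84 FPKM (4.41 to 13.3) and 11.4 FPKM (7.01 to 15.8). Antisense lncRNA genes cover 6.78% of the exon bases of MST1R and were listed at 0 to 0.0526 FPKM. MET was listed at 8.77 times MST1R in MDA-MB-231 and at 6.78 times in LM2-4175.

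HGF (ENSG00000019991, chromosome 7, 81328326 to 81399754, minus strand) was listed at 0.0162 FPKM (interval 0 to 0.155) in MDA-MB-231 against 0.00169 FPKM (0 to 0.138) in LM2-4175. The lower bound was 0 in both cell lines, so expression of HGF was not separated from 0 at this depth, and no fold is given. MET was thus measured in cells in which its own ligand was listed near 0.

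The 5 receptors were placed among 58 human receptor tyrosine kinases, of which 29 passed the filter on mean FPKM. AXL was first in both cell lines and held 46.3% of their summed FPKM in MDA-MB-231 and 40.7% in LM2-4175. The next by mean FPKM were the ephrin receptor EPHA2 with 101.1 and 125.4 FPKM, EGFR with 41.4 and 54.3 FPKM, FGFR1 with 46.4 and 46.2 FPKM, and MET. The lower bound of AXL lay above the upper bound of EPHA2 in both cell lines, 298.7 against 130.0 FPKM in MDA-MB-231 and 239.8 against 159.1 FPKM in LM2-4175. MET ranked 4 in MDA-MB-231 and 8 in LM2-4175, TYRO3 12 and 13, MERTK 17 and 12, and MST1R 18 and 15. The receptor nearest to AXL in log2(FPKM + 1) of both cell lines was EPHA2 at a distance of 2.40, followed by EGFR at 4.13. Those nearest to MET were ERBB2 at a distance of 0.41 and RYK at 0.47, over 2 values each.

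Of the 29 receptor tyrosine kinases tested, 2 were called higher in LM2-4175 and 3 lower, and the median log2 difference of the 29 was -0.01. Over all genes tested, 4.67% were called higher and 4.61% lower. None of the kinases called was a MET or TAM receptor, but 5 receptors are too few to set against these shares. ROR1, a receptor of Wnt ligands, reached 22.2 FPKM (14.3 to 30.1) in MDA-MB-231 against 2.83 FPKM (1.44 to 4.21) in LM2-4175. PDGFRB fell from 9.44 to 1.91 FPKM and FGFR3 from 1.57 to 0.307 FPKM. The endothelial receptor genes TIE1 and KDR were called higher, with 0.332 and 3.81 FPKM for TIE1 and 0.971 and 2.48 FPKM for KDR. The log2 differences of the MET and TAM receptors ran from -0.54 to 0.43. Those of the whole list, which includes these receptors, ran from -2.60 to 1.85.

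**Figure D3:**
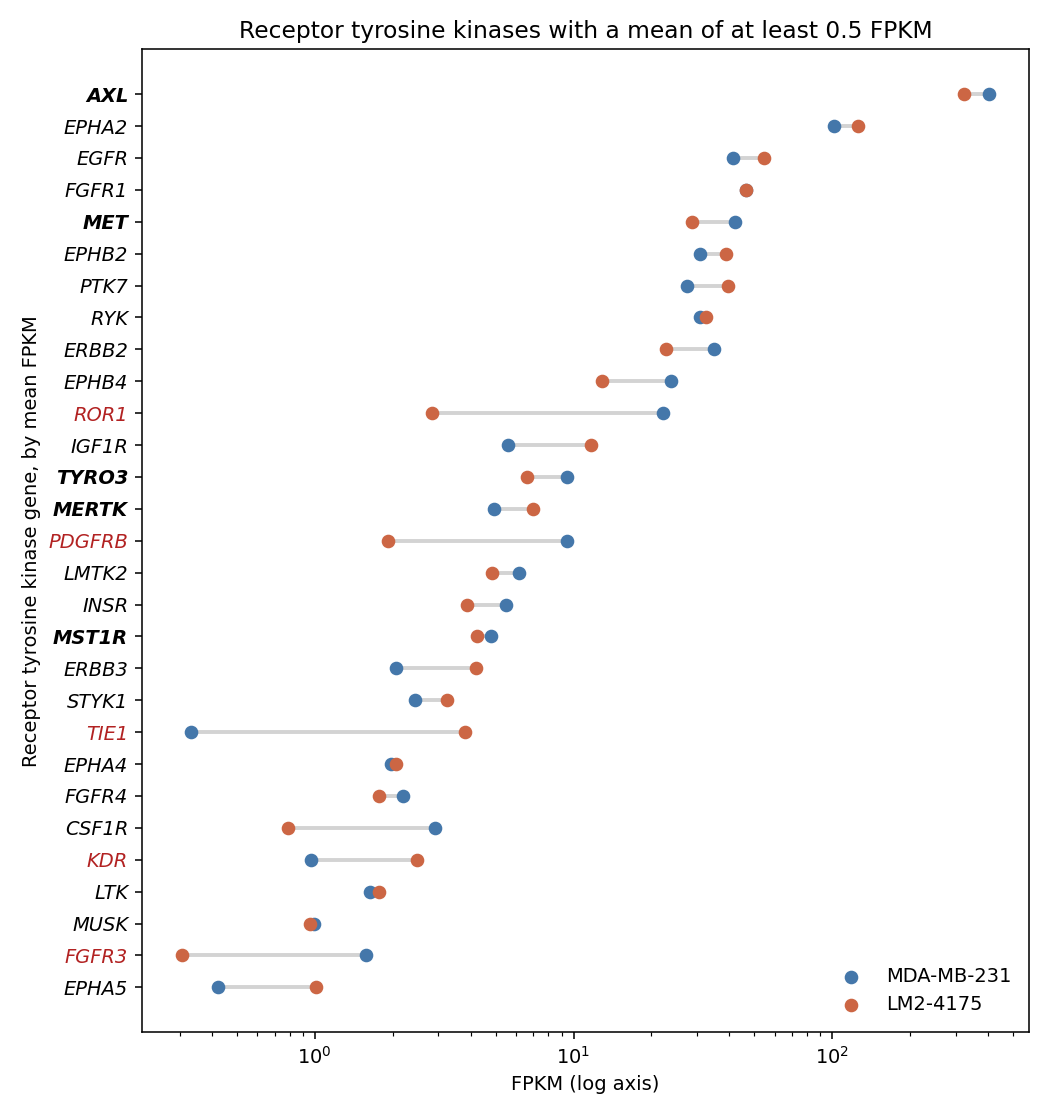
FPKM on a log axis of the 29 receptor tyrosine kinase genes with a mean of at least 0.5 FPKM, ordered by mean, in MDA-MB-231 (blue) and LM2-4175 (orange), with 1 value per cell line and grey lines joining them. MET and TAM receptors are in bold and the 5 genes called different are in red; AXL stands to the right of all others and no bold gene is red.

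The genes that act with these receptors were taken from 6 lists, of which 44 of 50 genes were tested. Called lower in LM2-4175 were 6 genes (13.6%), and 0 were called higher, where 4.61% and 4.67% of all genes tested were called lower and higher. This split depended on the rule. With 1.5-fold alone 7 genes were lower and 6 higher (GAB2, LRIG1, MST1, NRP1, PLAU and PLXNB1), and over all genes tested 1640 were lower and 1434 higher. With both cell lines scaled to the same sum or to a median difference of 0, PLAU was also called higher. The genes called came from 5 of the lists and are named with their lists below.

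Ligand processing was covered by MST1, the ligand of MST1R, by the proteases HGFAC, ST14, HPN, TMPRSS13 and PLAU, and by the protease inhibitors SPINT1 and SPINT2. HGF and MST1 are made as inactive precursors that such proteases cleave. Of these 8 genes, 5 were tested and 0 were called, with a median log2 difference of 0.24. MST1 had the largest difference, 0.76, with 1.41 FPKM (0 to 6.56) in MDA-MB-231 against 3.08 FPKM (0 to 12.1) in LM2-4175, and its bounds include 0 in both. PLAU, the urokinase gene, named here after its values were seen, reached 168.9 FPKM (126.1 to 211.6) against 276.5 FPKM (210.3 to 342.6), a ratio of 1.64 with bounds that overlapped only from 210.3 to 211.6 FPKM. HGFAC, HPN and TMPRSS13, which encode proteases that cleave the HGF precursor, were below the filter with at most 0.199 FPKM, while the inhibitor gene SPINT2 had 114.1 and 134.9 FPKM. The protease gene ST14 passed the filter with 0.653 and 0.472 FPKM.

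GAS6 and PROS1 need vitamin K-dependent carboxylation to bind phosphatidylserine. Among the 3 genes of this step, the carboxylase GGCX had 30.2 and 20.9 FPKM, with bounds down to 6.41 and 0.202 FPKM. The reductase gene VKORC1 reached 45.6 FPKM (30.0 to 61.2) in MDA-MB-231 against 44.2 FPKM (28.7 to 59.6) in LM2-4175. VKORC1L1, its paralog, fell in LM2-4175, from 28.2 FPKM (20.4 to 36.0) down to 14.4 FPKM (10.3 to 18.6), a log2 difference of -0.92, and was the 1 gene called.

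The ADAM proteases cut the outer part of MET, AXL and MERTK from the cell surface, and CD44, PLXNB1, ITGB4 and NRP1 are co-receptors of MET. Of the 7 genes on this list all were tested and ADAM10 was called. ADAM10 fell in LM2-4175, from 79.4 FPKM (57.9 to 100.9) down to 37.7 FPKM (27.4 to 48.0), a log2 difference of -1.06. ADAM17, the other sheddase, reached 15.0 FPKM (10.4 to 19.7) against 15.6 FPKM (11.4 to 19.8). NRP1 reached 122.4 FPKM (47.5 to 197.2) in MDA-MB-231 against 213.6 FPKM (106.8 to 320.4) in LM2-4175, and CD44 had 469.7 and 355.0 FPKM, and neither was called. The list had a median log2 difference of 0.05.

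Among 20 docking proteins and effectors, 18 were tested and VAV2 was called. VAV2, a guanine nucleotide exchange factor, fell in LM2-4175, from 23.9 FPKM (18.4 to 29.4) down to 12.4 FPKM (9.42 to 15.4), a log2 difference of -0.89. The list had a median log2 difference of -0.12, with 7 genes above 0 and 11 below, against 6326 above and 7585 below over all genes tested. SHC1 was not tested because its status in the table was other than OK. Of 9 genes for receptor turnover and phosphatases, SH3KBP1 and PTPRJ were called lower and the median was -0.10. SH3KBP1, which encodes the adaptor CIN85 that joins CBL to the endocytic machinery, fell in LM2-4175, from 80.2 FPKM (60.1 to 100.2) down to 36.8 FPKM (27.4 to 46.2). PTPRJ, a receptor phosphatase for which MET is a known substrate, fell in LM2-4175, from 37.2 FPKM (28.4 to 45.97) down to 21.3 FPKM (16.1 to 26.5). CBL, the ubiquitin ligase that marks MET for degradation, reached 11.3 FPKM (8.77 to 13.9) against 13.5 FPKM (10.4 to 16.5). Of 3 further proteins described as TAM ligands, 2 were tested. TUB fell in LM2-4175, from 1.06 FPKM (0.689 to 1.43) down to 0.0606 FPKM (0.00983 to 0.111), and LGALS3 reached 116.0 FPKM (86.3 to 145.8) against 99.1 FPKM (74.1 to 124.0).

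**Figure D4:**
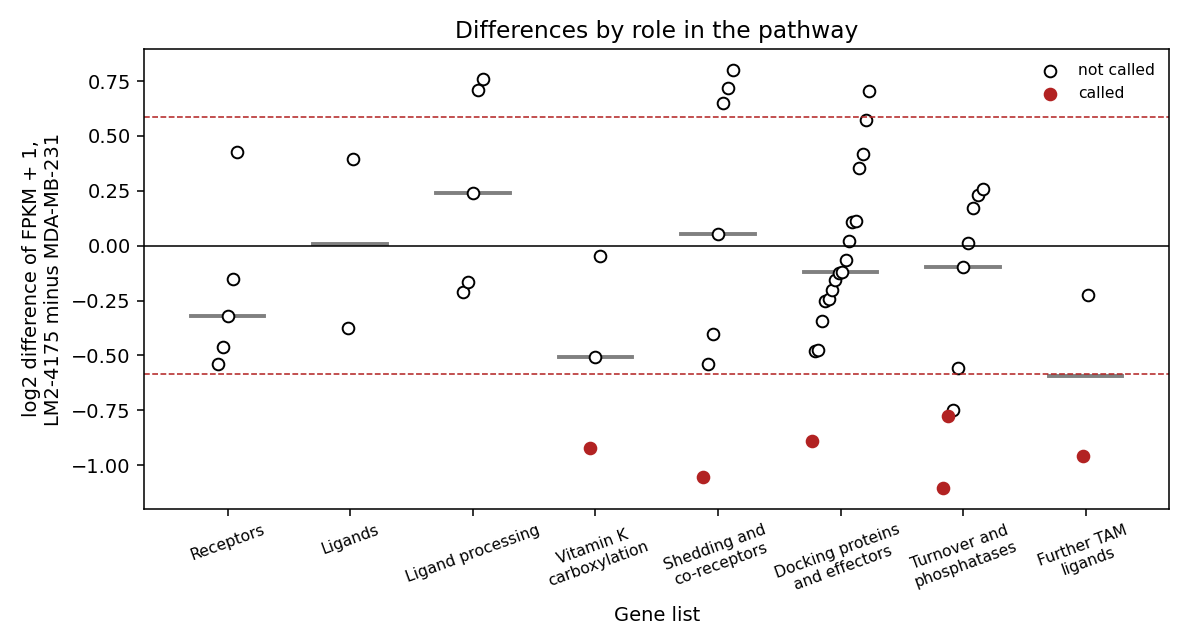
log2 difference of FPKM + 1 (LM2-4175 minus MDA-MB-231) of each gene tested, by role, with filled red points for genes called and open points for genes not called, grey bars for the median of each list and dashed lines at 1.5-fold. The 6 red points lie below the lower dashed line, and no receptor or ligand in the first 2 columns is red.

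The genes around each member were compared as a description of position. Over all genes tested, of any type, 7585 of 13911 were lower in LM2-4175, 9.27% were called and the median log2 difference was -0.04. Within 1 Mb of MET, 5 other protein-coding genes were tested, and all had a lower FPKM in LM2-4175, with a median log2 difference of -0.86. CAV1 and CAV2, which encode caveolins, were called lower among them, CAV1 with 587.3 FPKM (437.5 to 737.1) and 151.1 FPKM (115.5 to 186.8) and CAV2 with 157.9 and 36.2 FPKM. Around AXL 30 of 39 neighbours were lower, with a median of -0.33. Of these POU2F2 was called higher, with 2.35 FPKM (1.04 to 3.66) and 34.7 FPKM (20.5 to 48.9), and B3GNT8 lower, with 2.97 and 0.144 FPKM. The 2 neighbours of HGF had a median of -0.90. The neighbours of TYRO3, MST1R, GAS6 and PROS1 had medians of -0.09 to 0.10, and the 13 neighbours of MERTK a median of -0.36, with 4 higher and 9 lower, where MERTK itself was at 0.43. Within 1 Mb of MERTK the interleukin genes IL1B and IL1A were called higher, IL1B with 1.43 FPKM (0.807 to 2.04) and 819.1 FPKM (617.9 to 1020) and IL1A with 0.219 and 27.9 FPKM. FBLN7, in the same window, was called lower, with 6.05 and 2.67 FPKM. In the 1 Mb window of GAS6, TMEM255B was called higher. SEMA3B in that of MST1R and GCHFR in that of TYRO3 were called lower. The part of position in the values of the members was not tested.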

How the data were processed

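MDA-MB-231 and LM2-4175 RNA was sequenced in 2 libraries per cell line. Per the labels, reads were aligned to hg19 with TopHat2. The authors deposited for each GENCODE gene 1 FPKM per cell line with bounds and a status. The paper names Cufflinks for the FPKM and the labels name Cuffdiff, so which of them wrote the values is not certain. The libraries are combined, so values per library could not be examined. Read counts per library are listed in the paper's supplement and were not used here. How library sizes were normalized, what the bounds cover and whether strand was used are not given in the sources used here. The precision was read from the bounds, whose upper one lay a median of 38.6% above the FPKM in MDA-MB-231 and 38.1% in LM2-4175 over the genes tested.

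Members and lists were chosen with earlier results of these data known. A gene was tested if neither status differed from OK and its mean reached 0.5 FPKM (13911 of 57815). Differences are log2 ratios of FPKM + 1, which shrinks differences between low values. A limma fit was planned only for the case of 1 value per library. With 1 value per cell line, neither it nor a replicate block or left-out replicates could be run. All 8 members are named, and of each list the genes called or, with none, the one of largest difference, plus the 5 receptor tyrosine kinases of highest mean and the 2 nearest to AXL and to MET. Other genes were named after their values were seen. List genes were matched by Ensembl ID (121 of 121). GENCODE 44 on GRCh37 gave the gene positions and the overlaps of exons, with 55535 genes matched by ID and 2280 not, and start regions from RefSeq on GRCh38.p14, whose coordinates were not joined to those of the table. The deposited locus of some members differs from GENCODE 44. Deposited minus GENCODE 44, in bases, was -4919 for the start of GAS6, -4251 for the end of TYRO3 and -5937 for that of PROS1. For the end of MST1R, whose locus is shared with MON1A, it was 26300. The overlaps of exons may thus not hold for the authors' gene models. Python 3.11.15, NumPy 2.4.6, pandas 2.3.3 and Matplotlib 3.10.9 were used.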

Additional observations from a re-analysis of the deposited data

How the results depend on the processing

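No paired analysis was possible because the table holds 1 value per cell line and no value per library, and leaving out replicates was not run for the same reason. Under 9 alternatives (a pseudocount of 0.1 or none, no filter or a mean of at least 5 FPKM, scaling to the same sum or to a median difference of 0, a 2-fold threshold, the fold alone and the bounds alone) all 63 member values kept their sign and none of the members was called. Only the scalings could have changed a sign, as a pseudocount cannot and the other settings leave the difference as it is. The bounds of every member overlapped, so no setting that requires separate bounds could add a call without rescaling. The fold alone repeats the 0 of 7 given above. Only the scalings could have changed a call. The log2 difference of MET ranged from -0.56 to -0.47, of AXL from -0.32 to -0.24 and of MST1R, the smallest, from -0.19 to -0.09. HGF entered only without the filter, and MST1R was left out at a mean of at least 5 FPKM.

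The count of all genes called was 1290, and it was 764 at a mean of at least 5 FPKM, where fewer genes were tested, 853 at 2-fold and 3074 with 1.5-fold alone. Of the 6 genes called on the pathway lists, 2 were called at 2-fold, and 13 genes on them were called with 1.5-fold alone, 7 lower and 6 higher. Under both scalings 7 were called, 6 lower and 1, PLAU, higher. Ordered by the lower bound, 2 places of the members changed, those of TYRO3 and MERTK in LM2-4175, so that both cell lines had the same order. By the lower bound MST1R ranked 26 among the receptor tyrosine kinases in LM2-4175, against 15 by FPKM.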
